A study of Mus musculus with 4 samples.

Results

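The 10 genes described here, H2-Aa, H2-Ab1, H2-Eb1, H2-DMa, Cd74, Cd79a, Cd79b, Cd52, Cxcl13 and Ptprc, belong to class II antigen presentation, the B-cell receptor and the surface of leukocytes. They were taken by their symbols from the 23235 symbols of the deposited tables, and they were selected on the FPKM values of these same libraries, most of them being higher in mutant than in wild type islets. Differences between the genotypes are therefore given as a description of these genes, without a test. RNA was sequenced from isolated islets, the hormone-secreting part of the pancreas, of C57BL/6 mice. The 4 groups were wild type (WT) fasted, KR mutant fasted, WT refed and KR mutant refed, with 1 library each. KR mice carry, as known from the study, a FoxO1 allele knocked in with arginine at the lysines that are otherwise acetylated, so every cell type, leukocytes included, has the mutation. The islets of 3 mice per genotype were combined, the fast was 48 h by the titles but 24 h by the extraction protocol, and refeeding lasted 6 h. The labels used here state neither age nor sex.

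Class II molecules are pairs of an alpha and a beta chain that show peptides from the endosome to CD4+ T cells. The invariant chain, encoded by Cd74, guides the pair from the endoplasmic reticulum to the endosome and blocks its groove on the way, and H2-DM, of which H2-DMa encodes the alpha chain, loads the peptide. Dendritic cells, B cells and macrophages make these proteins, and islets hold resident macrophages. On B cells, the chains encoded by Cd79a and Cd79b form a heterodimer that carries the signal of the antigen receptor. CXCL13 draws B cells into lymphoid follicles, CD52 is a small surface glycoprotein of lymphocytes and myeloid cells, and Ptprc encodes CD45, the phosphatase found on all nucleated blood cells.

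All 10 genes had a value with the status OK in every library. With fasted WT set to 1, the estimated depths were 1.01 (fasted KR), 0.683 (refed WT) and 0.418 (refed KR), the last being the shallowest. The islet label was checked on the hormone genes, of which glucagon (Gcg) lay between 21260 and 26160 FPKM in the 4 libraries. FPKM is the number of fragments scaled to transcript length and library size, so levels can be compared between genes. The islet signal exceeded that of every gene described here by far: Cd74, at 19.0 to 54.2 FPKM, was the highest of the 10. A number of fragments behind each value was derived from the deposited bounds, and these bounds and numbers cover counting error only. In bulk islets, fewer cells of a type and less RNA per cell cannot be told apart.

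Of the 10 genes, 4 lie together in the class II region of chromosome 17, between 34272616 and 34453619 of mm9, a span of 181004 bases. H2-DMa lies at 34272616 to 34275480, H2-Ab1 at 34400172 to 34406363, H2-Aa at 34419696 to 34424716 and H2-Eb1 at 34442812 to 34453619. The remaining genes lie elsewhere: Cd79a on chromosome 7 at 25682530 to 25687216, Cd79b on chromosome 11 at 106172655 to 106175843, Cd52 on chromosome 4 at 133649453 to 133650988, Cxcl13 on chromosome 5 at 96385958 to 96390087 and Ptprc on chromosome 1 at 139959438 to 140071882.

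Class II promoters are known for an X box, bound by the RFX complex, and a Y box, bound by NF-Y, which together recruit the coactivator encoded by Ciita. The 250 bases before the start of transcription are shown for H2-Aa and H2-Eb1, an alpha and a beta chain gene that were both higher in KR, and for Cd79a, which was higher in KR too but is no class II gene. Sequences are from RefSeq on GRCm38.p6, which is not the build of the expression tables. Capitals mark GCAAC, a part of the X box, and CCAAT, the core of the Y box, on either strand (GTTGC and ATTGG in reverse).
H2-Aa, chr17:34287824-34288073, minus strand: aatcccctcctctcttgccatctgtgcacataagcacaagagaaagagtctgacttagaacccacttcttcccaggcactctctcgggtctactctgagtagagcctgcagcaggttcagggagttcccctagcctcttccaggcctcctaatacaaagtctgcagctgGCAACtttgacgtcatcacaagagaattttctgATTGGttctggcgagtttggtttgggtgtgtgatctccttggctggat
H2-Eb1, chr17:34305617-34305866, plus strand: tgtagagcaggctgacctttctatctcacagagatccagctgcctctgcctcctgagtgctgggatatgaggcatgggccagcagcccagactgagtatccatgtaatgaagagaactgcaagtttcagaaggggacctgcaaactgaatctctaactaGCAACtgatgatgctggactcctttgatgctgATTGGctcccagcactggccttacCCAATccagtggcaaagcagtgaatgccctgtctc
Cd79a, chr7:24897247-24897496, plus strand: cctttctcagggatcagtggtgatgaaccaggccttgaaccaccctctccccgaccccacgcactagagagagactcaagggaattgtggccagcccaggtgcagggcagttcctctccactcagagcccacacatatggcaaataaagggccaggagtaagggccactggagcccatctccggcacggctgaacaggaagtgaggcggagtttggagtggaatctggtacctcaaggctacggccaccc
In H2-Aa the X-box part began 81 bases and the Y core 48 bases before the start, with 28 bases between them. In H2-Eb1 the X-box part began 91 bases before the start and was followed after 27 bases by a Y core, and another Y core in the reverse orientation began 35 bases before the start. The Cd79a window held neither set of letters. Over all 32536 distinct windows of this length, 29.7% held the X-box part, 33.8% held the Y core and 10.5% held both. The arrangement of GCAAC followed by ATTGG after 10 to 40 bases, chosen after the 2 class II windows had been seen, was present in 1.21%. Windows were found for 6 of the 10 genes, and those of Ptprc and Cxcl13 did not hold this arrangement. H2-DMa has several annotated starts, its windows lie at upstream ones, and they are not read here. A match of letters is a description and shows no binding.

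Of the class II chain genes, H2-Aa was higher in KR than in WT islets with bounds apart in both feeding states, and H2-Ab1 and H2-Eb1 were so in fasted islets. H2-DMa overlapped between the genotypes in each state. H2-Aa, the alpha chain gene of the I-A molecule, stood at 13.0 FPKM when fasted (bounds 11.5 to 14.6) and 13.4 when refed (11.5 to 15.2) in WT, and at 24.1 (22.03 to 26.15) and 22.5 (19.4 to 25.6) in KR. Both KR values lay above both WT values with no overlap of the bounds, and the 2 values of each genotype overlapped. For H2-Ab1, the partner chain, the level was 6.46 in fasted WT (5.46 to 7.46) and 2.73 in refed WT (1.95 to 3.52), against 11.8 in fasted KR (10.4 to 13.1) and 4.37 in refed KR (3.10 to 5.65). Here both fasted values exceeded the refed value of their genotype with bounds apart, and the genotypes were apart in the fasted pair only. Refed KR lay below fasted WT in level, with bounds that overlapped those of refed WT and fasted WT.

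H2-Eb1, the beta chain gene of I-E, was at 4.74 FPKM (4.04 to 5.45) in WT and 8.37 (7.44 to 9.30) in KR when fasted, and 4.26 (3.45 to 5.07) and 5.27 (4.12 to 6.42) when refed. Fasted KR stood apart, and the other libraries overlapped one another. C57BL/6 mice are known to lack the I-E alpha chain, and the 1 row for it in the tables, H2-Ea-ps, was listed at 0 in every library. H2-DMa, of the peptide loading complex, had 2.01 FPKM (1.28 to 2.74) in WT and 3.38 (2.43 to 4.33) in KR when fasted, and 3.53 (2.35 to 4.71) and 5.13 (3.32 to 6.94) when refed. Its bounds rested on 30 to 51 fragments, and only those of fasted WT and refed KR were apart.

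Cd74 reached 36.2 FPKM (33.9 to 38.5) in WT and 54.2 (51.4 to 57.0) in KR when fasted, and 19.0 (16.9 to 21.0) and 27.1 (24.0 to 30.2) when refed. Each of its 4 values lay apart from the other 3, and KR exceeded WT within each feeding state. With 310 to 1496 fragments, it has the most fragments of the 10 in each library. It lies apart from the other class II genes, on chromosome 18 at 60963503 to 60972306 of mm9.

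**Figure D1:**
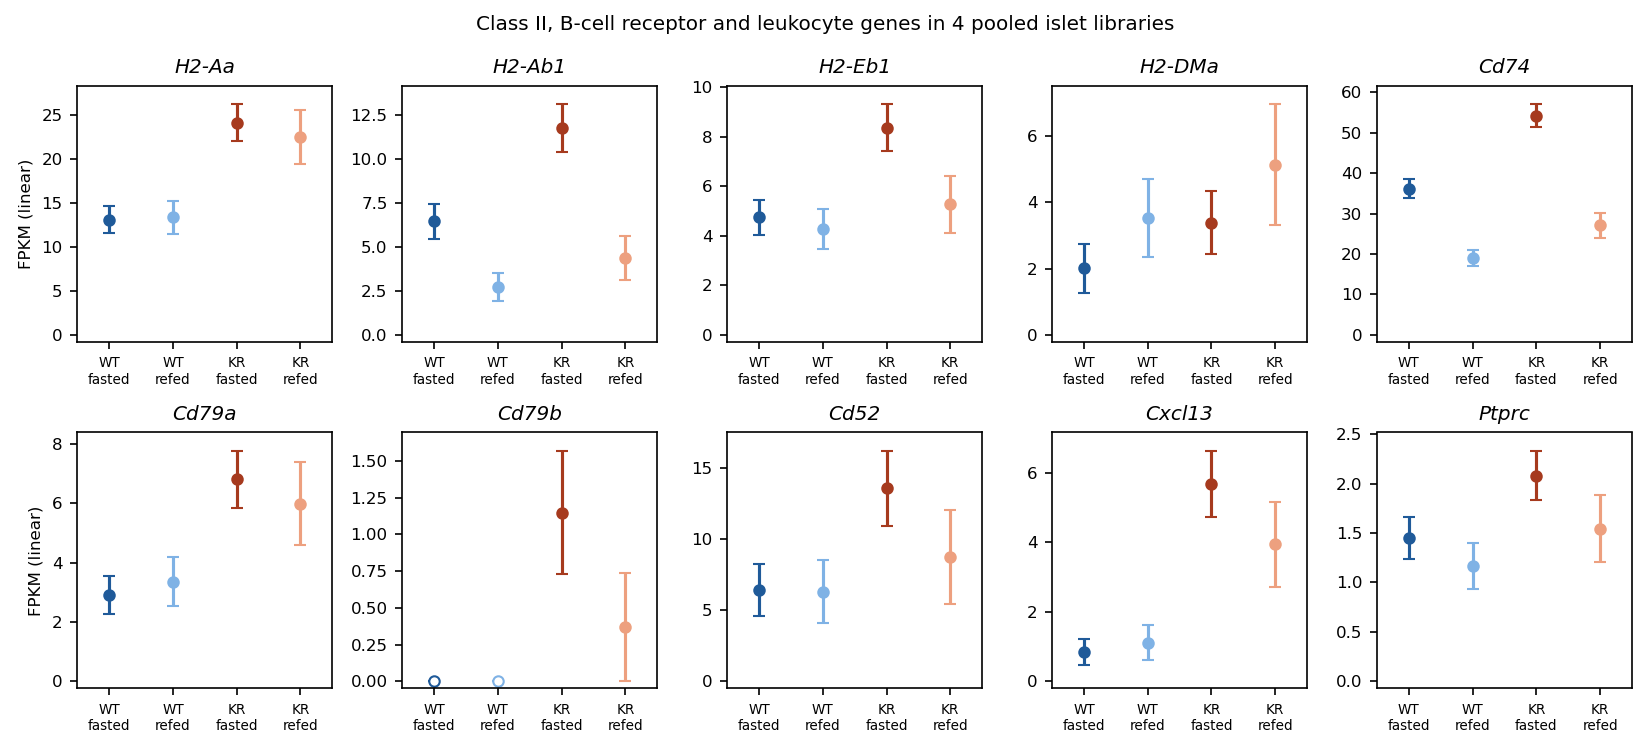
FPKM of the 10 genes in the 4 libraries on linear axes, with the deposited lower and upper bounds as bars; open circles are values listed at 0. The bounds of H2-Aa and Cxcl13 separate by genotype and those of Cd74 by genotype and feeding, those of H2-Ab1 overlap between the refed libraries, and Cd79b is listed at 0 in both WT libraries.

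Among the B-cell receptor genes, Cd79a was measured in every library and its partner Cd79b was not. Cd79a stood at 2.91 FPKM (2.28 to 3.54) in WT and 6.81 (5.85 to 7.77) in KR when fasted, and 3.36 (2.54 to 4.18) and 5.98 (4.58 to 7.38) when refed. KR lay above WT in both states with bounds apart, and feeding states overlapped within each genotype. Cd79b was listed at 0 in both WT libraries, at 1.15 in fasted KR (0.729 to 1.57) and at 0.370 in refed KR (0 to 0.741), the last from 4 fragments. No fold is given against a value listed at 0.

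Cxcl13 had the largest FPKM ratio between the genotypes of the 9 genes above 0 in every library (6.74 fasted and 3.52 refed), with 0.844 FPKM (0.475 to 1.21) in WT and 5.68 (4.73 to 6.63) in KR when fasted, and 1.12 (0.605 to 1.63) and 3.94 (2.71 to 5.17) when refed. The WT values rested on 21 and 19 fragments and the KR values on 143 and 41. Cd52 was at 6.40 (4.57 to 8.23) in WT and 13.6 (10.9 to 16.2) in KR when fasted, and 6.31 (4.11 to 8.51) and 8.75 (5.44 to 12.1) when refed, so fasted KR was apart from both WT libraries while refed KR overlapped each of the others. Ptprc, with 1.45 (1.24 to 1.66) in WT and 2.08 (1.83 to 2.33) in KR when fasted, and 1.17 (0.936 to 1.40) and 1.54 (1.20 to 1.88) when refed, had a small gap: fasted KR was apart from both WT libraries, and refed KR overlapped them and fasted KR.

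Setting KR against WT addresses which transcripts go with the acetylation-defective FoxO1. It has 1 library per side in each feeding state and no replicate check, and it is the contrast that chose these genes. Of the 9 genes above 0 in every library, 9 had a higher FPKM in KR in each feeding state, and the bounds were apart for 8 genes (fasted) and for 4 (refed). Of all 11953 genes with a mean of at least 1 FPKM, 4806 (fasted) and 4304 (refed) had a higher FPKM in KR. With bounds apart, 7.47% of them were higher in KR when fasted, 3.51% when refed and 1.77% in both pairs, as were 4 of the 9. These 4 were H2-Aa, Cd74, Cd79a and Cxcl13. On the log2 scale of FPKM + 1, the median ratio of KR to WT over the 9 was 0.78 (fasted) and 0.49 (refed), beside -0.03 and -0.05 over all genes tested.

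Cxcl13 was the single one of the 9 at least 2-fold higher on that scale, which understates low genes, with log2 ratios of 1.86 (fasted) and 1.22 (refed), where 0.134% and 0.167% of all genes were (0.109% and 0.201% were at least 2-fold lower). Cd79a, at 0.9975 and 0.68, and Cd52, at 0.98 and 0.42, lay just short of that line in the fasted pair. Their plain FPKM ratios there were 2.34 and 2.12, so that 3 of the 9 were past it without a pseudocount, as with one of 0.1 or 0.5 or after rescaling. H2-Aa had 0.84 and 0.71, H2-Ab1 0.78 and 0.53, H2-Eb1 0.71 and 0.25, and Cd74 0.57 and 0.49. H2-DMa had 0.54 and 0.44, and Ptprc 0.33 and 0.23. In all 9 genes the ratio was smaller in the refed than in the fasted pair, but with 1 library per group the difference of the ratios was not tested. The pairs share no library, and refed KR is the shallowest. These genes were chosen on their genotype values in these same libraries. How far that choice gave the larger fasted ratios was not tested.

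**Figure D2:**
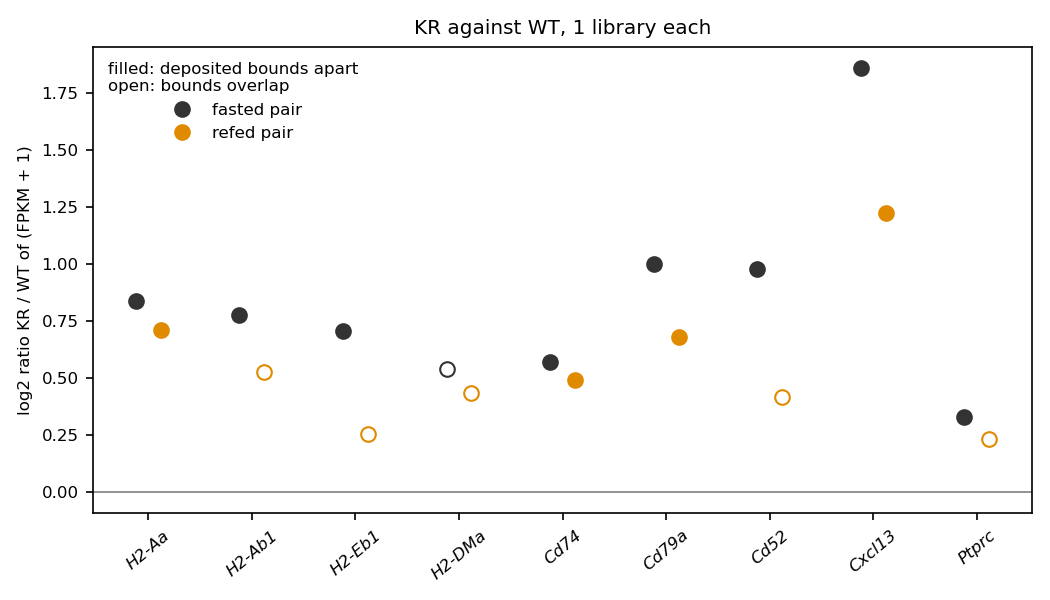
Log2 ratio of KR to WT of FPKM + 1 for the 9 genes above 0 in every library, in the fasted and the refed pair. Filled points have deposited bounds that are apart, 8 when fasted and 4 when refed; all points lie above 0.

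Setting refed against fasted islets addresses which transcripts follow a meal. Feeding did not choose these genes, but the KR libraries, whose values helped to choose them, enter this comparison too. The invariant chain gene and a beta chain gene were lower in refed islets of both genotypes, while the alpha chain gene H2-Aa did not pass. The same 4 libraries serve both comparisons. It was tested with limma over all 4 libraries with genotype as a covariate, for the 9 genes with a mean of at least 1 FPKM. Cd79b, at a mean under 1, was not tested, and Cxcl13 passed that filter through its KR values. Of the 9, 3 fell, 1 rose and 5 did not pass, a share of 44.4% called beside 56.9% of all 11953 genes (27.7% higher and 29.2% lower in refed islets). The share called is thus no higher than the background. The median fitted change was -0.23 for the 9 genes and -0.01 for all genes. By pair, the medians of the 9 were -0.02 in WT and -0.44 in KR, beside 0.004 and -0.02 over all genes. How far the choice of the genes on KR values lowered the KR pair was not tested. This model has 1 residual degree of freedom per gene, so its p-values rest largely on the residuals of other genes. With 1 library per group, these residuals are differences between the feeding responses of the genotypes. Genes of other cell types moved beside them: of 8 tested endothelial genes 5 fell and 1 rose with refeeding (pair medians -0.74 in WT and -0.41 in KR), and of 14 endocrine genes 7 rose and 1 fell (0.30 and 0.22). Their part in the feeding changes was not tested.

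H2-Ab1 fell by 1.12 ± 0.10 (SE, 4 libraries) on the log2 scale after refeeding (limma adjusted p = 4.25e-05), the WT pair showing -0.9977 and the KR pair -1.25. Cd74 fell by 0.94 ± 0.06 (adjusted p = 1.46e-05), with -0.90 in WT and -0.97 in KR. The change of both genes was larger than the difference between the 2 genotypes' responses, and both passed in 9 of 9 alternatives. H2-Eb1 fell by 0.35 ± 0.12 (adjusted p = 0.0304), of which the WT pair showed -0.13 with overlapping bounds and the KR pair -0.58. The call of H2-Eb1 was lost with no filter on low values (adjusted p = 0.162) and in limma without trend (adjusted p = 0.0558), within a range of 0.0249 to 0.162. H2-DMa rose by 0.54 ± 0.11 (adjusted p = 0.00262), by similar ratios of 0.59 in WT and 0.48 in KR, although its bounds overlapped in each pair.

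H2-Aa did not pass, with a fitted change of -0.03 ± 0.07 (adjusted p = 0.727). Nor did Cd79a, with 0.00 ± 0.11 to 2 decimals (adjusted p = 0.988), Cxcl13, with -0.12 ± 0.16 (adjusted p = 0.552), Ptprc, with -0.23 ± 0.14 (adjusted p = 0.182), or Cd52, with -0.30 ± 0.12 (adjusted p = 0.0683). Cd52 passed in 1 of 9 alternatives, with genes of a mean of at least 5 FPKM (adjusted p = 0.0487, within a range of 0.0487 to 0.277). Ptprc passed in 2 of 8, without trend (adjusted p = 0.0471) and with limma-voom (adjusted p = 0.0348), within a range of 0.0348 to 0.203. Without the fasted KR library the model has no residual degree of freedom, and the WT pair alone, given as values, had 2 of 9 genes lower with bounds apart, H2-Ab1 and Cd74, where 30.9% of all genes were (30.2% were higher). In the KR pair there were 3, with H2-Eb1 as the third, beside 29% of all genes (23.1% were higher). On the log2 scale of FPKM + 1, 0 of the 9 in the WT pair and 1 in the KR pair, H2-Ab1, were at least 2-fold lower, beside 2.4% and 1.75% of all genes, and 0 were at least 2-fold higher, beside 1.11% and 0.577%. By plain FPKM, H2-Ab1 in WT, at a ratio of 0.423, and Cd74 in KR, at 0.4999, were past that line too.

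**Figure D3:**
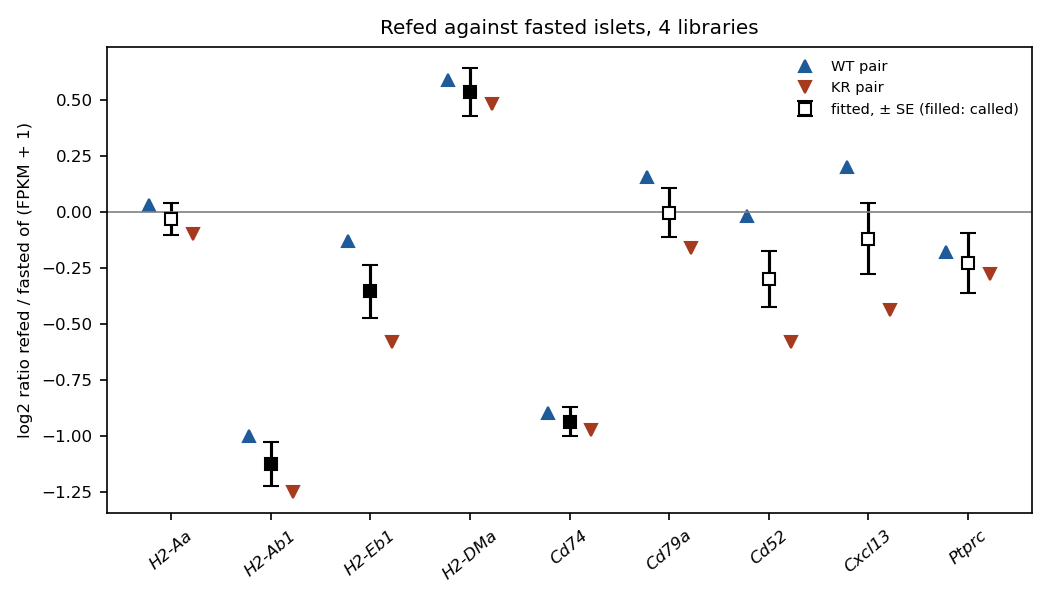
Log2 ratio of refed to fasted of FPKM + 1 for the 9 genes tested. Triangles are the WT and KR pairs; squares are the fitted change with its SE, filled where the limma adjusted p was under 0.05. H2-Ab1 and Cd74 lie near -1 in both genotypes and H2-Aa near 0.

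The alpha and beta chain genes of I-A thus changed unequally with feeding. The FPKM of H2-Aa was 2.02 times that of H2-Ab1 in fasted WT (95% counting interval 1.67 to 2.44) and 2.05 times in fasted KR (1.78 to 2.35). After refeeding it was 4.89 times in WT (3.57 to 6.69) and 5.14 times in KR (3.74 to 7.05). The 2 genotypes overlapped within a feeding state, and the feeding states were apart in both. The fragments behind the H2-Ab1 values numbered 166 and 48 in fasted and refed WT and 306 and 47 in fasted and refed KR. At the depth of the refed libraries the fasted levels would have given 113 fragments in WT and 126 in KR (126.5 before rounding). The transcript length implied by FPKM and fragments differed by less than 1 part in 100 between libraries for both genes, so the shift was in the fragments. The ratio of H2-Eb1 to H2-Ab1 moved likewise, from 0.735 in fasted WT (0.595 to 0.907) to 1.56 once refed (1.11 to 2.19) and from 0.711 in fasted KR (0.608 to 0.832) to 1.20 in refed KR (0.843 to 1.72).

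Cd74, like H2-Ab1, was lower relative to H2-Aa after refeeding. The ratio of their levels was 2.77 in fasted WT (2.44 to 3.16) and 2.25 in fasted KR (2.04 to 2.48), and 1.42 (1.19 to 1.69) and 1.21 (1.01 to 1.44) in refed WT and KR. A ratio within a library shows unequal change and does not say which of the genes was constant.

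**Figure D4:**
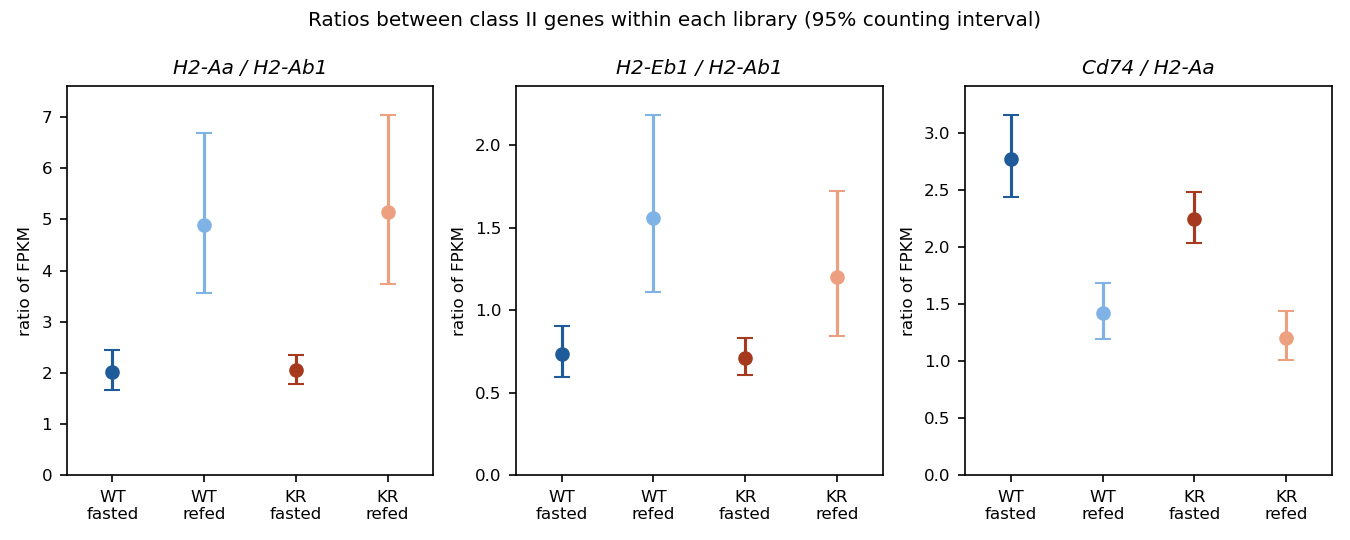
Ratios of FPKM between class II genes in each library, with 95% counting intervals on linear axes. H2-Aa to H2-Ab1 is near 2 in both fasted and near 5 in both refed libraries.

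Set against Ptprc, a gene of all leukocytes, the intervals of Cd74 and H2-Aa overlapped between the genotypes, whereas those of Cxcl13 did not. Overlapping intervals do not show equal ratios: both ratios were higher in KR in each feeding state, that of H2-Aa by more. The ratio of Cd74 to Ptprc was 25.0 in fasted WT (21.3 to 29.2) and 26.1 in fasted KR (22.9 to 29.6), and 16.3 (13.0 to 20.2) and 17.5 (13.7 to 22.4) in refed WT and KR, overlapping between genotypes in each state. H2-Aa to Ptprc was 8.998 (7.49 to 10.8) and 11.6 (10.02 to 13.39) in fasted WT and KR and 11.5 (9.03 to 14.5) and 14.6 (11.3 to 18.8) after refeeding, again with overlap within a state. Cxcl13 to Ptprc remained apart between the genotypes, at 0.582 (0.371 to 0.913) and 2.73 (2.23 to 3.34) in fasted and 0.958 (0.587 to 1.56) and 2.55 (1.75 to 3.71) in refed WT and KR. For Cd79a to Ptprc the values were 2.01 (1.55 to 2.59) and 3.27 (2.73 to 3.93) in the fasted libraries, which were apart, and 2.88 (2.12 to 3.92) and 3.87 (2.83 to 5.31) in the refed ones, which overlapped. The part that the share of leukocytes in the pools had in these gaps was not tested.

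The fasted KR library stood apart by some of the B-cell genes, while others were at like levels in both fasted libraries. Ms4a1, which encodes CD20, had 32 fragments (0.655 FPKM) in fasted KR and was listed at 0 in the other 3 libraries. At the depth of the refed KR library, the fasted KR level of Ms4a1 would have given 13.2 fragments, and a count of 0 allows up to 3. Of 21 further B-cell genes above 0 in any library, 7 were above 0 in fasted KR alone, beside 2.08% of all 17451 such genes, and 15 were highest there, beside 18.8%. Pax5 (2 fragments) and Pou2af1 (18 fragments), named after their values were seen, were among the 7. In the other libraries, 13 (fasted WT), 10 (refed WT) and 13 (refed KR) of the 22 B-cell genes in the tables were above 0. The transcription factor gene Ikzf3 stood at 2.93 and 2.65 FPKM in the fasted WT and KR libraries, and at 1.47 and 1.15 in the refed ones. The adaptor gene Blnk, also named after its values were seen, was at 2.09 and 2.31 when fasted and 1.335 and 1.84 when refed. Cd22, a B-cell surface gene named likewise, was at 0.437 and 0.453 in fasted WT and KR. In refed WT and KR it was at 0.358 and 0.238. Igj, the joining chain gene of secreted antibodies and also chosen after its values were seen, stood at 5.20 FPKM in fasted KR (260 fragments) and 0.725 in refed KR (15 fragments), against 0.0606 and 0.0592 in fasted and refed WT. At the depth of refed KR the fasted KR level of Igj would have given 107 fragments (107.5 before rounding).

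Cd79a was measured also where Ms4a1 was not. In the 3 libraries where Ms4a1 was listed at 0, Cd79a stood at 2.91, 3.36 and 5.98 FPKM, with 85, 67 and 73 fragments. Its refed KR value of 73 fragments compares with 83.1 expected at that depth from the fasted KR level, while Cd79b had 4 against 12.4. The defining B-cell marker Ms4a1 thus accompanied Cd79a in fasted KR alone. The summed FPKM of the 22 further B-cell genes in the tables was 8.87 and 6.18 in fasted and refed WT and 16.8 and 7.69 in fasted and refed KR. Igj alone made up 5.20 and 0.725 of the fasted and refed KR sums, and 0.0606 and 0.0592 of the WT sums. Among T-cell markers, Cd3e had 6 fragments in fasted KR and was listed at 0 elsewhere, and of 18 T-cell and NK-cell genes above 0 in any library 13 were highest in fasted KR and 5 were above 0 there alone, beside 18.8% and 2.08% of all genes. Others of the list were not: Cd247, a chain of the T-cell receptor complex, had 2.56 and 1.56 FPKM in the fasted WT and KR libraries, and the receptor gene Il7r 1.75 and 1.71. Cd4, chosen after its values were seen, had 38 fragments in fasted KR and 11 in fasted WT, and after refeeding 4 in WT and 1 in KR. The part of these cells in the genotype gaps was not tested. In the refed pair Ms4a1 was listed at 0 in both libraries, whereas Igj and Cd79b had 15 and 4 fragments in refed KR and 2 and 0 in refed WT.

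**Figure D5:**
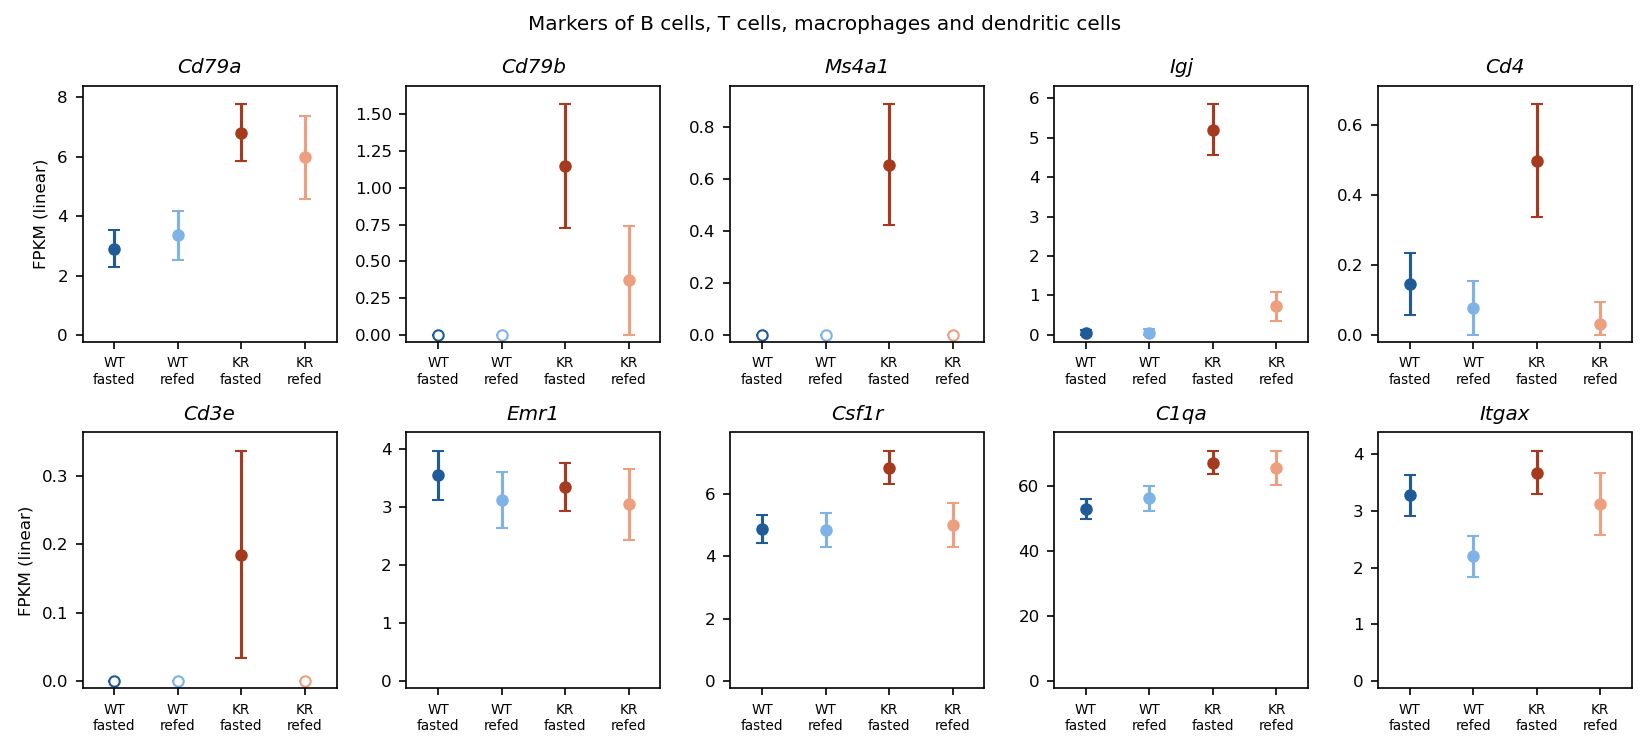
FPKM of Cd79a, Cd79b and markers of B cells (Ms4a1, Igj), T cells (Cd4, Cd3e), macrophages (Emr1, Csf1r, C1qa) and dendritic cells (Itgax) on linear axes, with deposited bounds; open circles are values listed at 0. Ms4a1 and Cd3e are above 0 in fasted KR alone, while Cd79a is present in all 4 libraries.

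Macrophage genes were far more abundant in every library than those of lymphocytes. The summed FPKM of 19 macrophage genes was 448 and 424 in fasted and refed WT and 445 and 420 in fasted and refed KR (419.6 before rounding), led by Lyz2. None of the 15 tested passed between the genotypes in limma, where 1.26% of all genes did (0.602% higher and 0.661% lower in KR). Of this list 1 passed at a mean of at least 5 FPKM, 1 after rescaling and 3 with limma-voom. Between feeding states 2 of the 15 rose, Tyrobp and Fcer1g by 0.24 and 0.20, and 3 fell, among them Cd68 and Lyz2 by 0.35 and 0.29, beside 27.7% and 29.2% of all genes. By pair the genotype medians of the list were 0.08 and 0.04 in the fasted and refed pairs. The macrophage gene Emr1, which encodes F4/80, stood at 3.54 and 3.12 in fasted and refed WT and 3.34 and 3.04 in fasted and refed KR, with overlapping bounds. Csf1r, a macrophage growth factor receptor gene, was at 4.87, 4.84, 6.83 and 4.99 in the same order, with fasted KR apart from the other 3. C1qa, a complement gene of resident macrophages, was at 53.2 and 56.3 in WT and 67.4 and 65.7 in KR, so its bounds were apart between the genotypes in both states. The bounds of C1qb, at 33.2 and 35.7 in WT and 37.5 and 41.6 in KR, overlapped between the genotypes in both states. Lyz2 went the other way, with bounds apart in both states. It stood at 170 and 142 in fasted and refed WT and 149 and 119.5 in fasted and refed KR. H2-Aa was 0.245 times C1qa in fasted WT (0.216 to 0.279) and 0.358 times in fasted KR (0.324 to 0.394), and 0.237 (0.204 to 0.276) and 0.342 (0.293 to 0.400) in refed WT and KR, apart between the genotypes in both states.

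Of 12 dendritic cell genes, 3 were tested and 0 passed between the genotypes. Itgax, which encodes CD11c and is also made by islet macrophages, was at 3.27 and 2.20 in fasted and refed WT and 3.67 and 3.12 in fasted and refed KR. The dendritic cell genes Flt3, Xcr1 and Clec9a had at most 4 fragments in any library. Zbtb46, a further dendritic cell gene, had 21 fragments in fasted WT and 5 in fasted KR. It was lower there in KR with bounds apart, at 0.427 FPKM (0.239 to 0.615) against 0.115 (0.0104 to 0.220). In refed WT and KR it had 5 and 3 fragments. Between feeding states Naaa and Irf8 fell by 0.68 and 0.54. None of 15 tested genes of leukocytes in general passed between the genotypes, at medians of 0.02 and 0.07. Between feeding states 5 of these fell and 1 rose, beside the shares of all genes given above. The lysosomal membrane gene Laptm5 fell by 0.96 ± 0.08 (adjusted p = 3.54e-05), from 10.5 to 4.91 FPKM in WT and from 11.8 to 5.56 in KR.

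Among the other genes of the class II pathway, none was called higher in KR. The tables held 20 such genes and 11 of them were tested, of which 0 were higher and 1 lower in KR, beside 0.602% and 0.661% of all genes. Ifi30, a thiol reductase gene of the endosome, was the one, lower by 0.44 on the log2 scale (adjusted p = 0.0105), at 122 and 146 FPKM in fasted and refed WT and 92.3 and 104 in fasted and refed KR. The call of Ifi30 depends on the model, as no gene of this list passed without trend or with no filter on low values. Between feeding states 2 rose, Nfyc by 0.32 ± 0.08 (0.315 before rounding) and Ifi30 by 0.22 ± 0.06, and 3 fell: Rfxap by 0.38 ± 0.08, Nfya by 0.33 ± 0.10 and the cathepsin gene Ctss by 0.16 ± 0.06. Of all genes, 27.7% rose and 29.2% fell. Nfya, Nfyc and Rfxap encode subunits of the factors that bind the Y and X boxes shown above, and all of them are made in many tissues. Ciita, the master regulator of class II genes, was near the limit of detection in each library, at 0.0640 and 0.0717 FPKM in fasted and refed WT and 0.132 and 0.162 in fasted and refed KR, from 6, 4, 14 and 6 fragments. H2-DMb1, which encodes the partner chain of H2-DMa, had 0.783 and 1.20 in WT and 1.66 and 1.02 in KR, with bounds apart in the fasted and overlapping in the refed pair, and did not pass. Its fasted gap was narrow, from an upper bound of 1.12 in WT to a lower bound of 1.17 in KR. Cd40 of the same list went the other way, at 2.19 (1.70 to 2.69) in fasted WT and 1.23 (0.852 to 1.60) in fasted KR. In refed WT and KR it was at 1.64 and 1.39 with overlapping bounds, and it did not pass between the genotypes.

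Class I presentation, used by nearly all cells, served as the nearest comparison. Of 15 tested class I genes 1 rose and 0 fell in KR, beside 0.602% and 0.661% of all genes. B2m, the light chain gene, whose call was lost with no filter on low values and without trend, rose by 0.32 ± 0.06 (adjusted p = 0.041), with 239 and 279 FPKM in fasted and refed WT and 283 and 369 in fasted and refed KR. The heavy chain gene H2-K1 was at 485 and 524 in WT and 505 and 539 in KR and did not pass. The list medians were -0.02 (fasted) and -0.09 (refed). Whether class II and class I genes differ in their genotype ratios was not tested.

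The genes whose profile over the 4 libraries lay nearest to the median profile of the 10 were Tmem59l, Mafa, Adora2b and Clip4, at Euclidean distances of 0.15, 0.22, 0.28 and 0.28 in log2 units among 8589 genes with a mean of at least 5 FPKM. Tmem59l had 52.1 and 49.1 FPKM in fasted and refed WT and 95.2 and 74.9 in fasted and refed KR. With 4 libraries such a likeness is a description. Of the 10 themselves, Cd52 was nearest to the median profile, at 0.06, and H2-Ab1 and Cxcl13 were farthest, at 0.88 and 0.87, with H2-DMa at 0.85.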

How the data were processed

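Islet RNA was measured by sequencing in 4 pooled libraries, 1 per combination of genotype and feeding state. The submitters' processing notes name bcl2fastq 1.8.4, TopHat2 2.0.4 and the mouse build mm9. What was deposited is FPKM with lower and upper bounds and a status, per the file headers; the program that made them is not given in the sources used here. Coordinates are those of mm9, counted from 1. The deposited start was raised by 1, since RefSeq lengths equalled end minus start in 8901 rows and end minus start plus 1 in 549.

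Rows were summed by symbol and values without the status OK set to missing. The standard error was taken as upper bound minus FPKM, divided by 2, and fragments as the squared ratio of FPKM to it. Depth was the median ratio of fragments per FPKM over 7982 genes. The implied fragments summed to 26407398 in fasted WT, 25711229 in fasted KR, where Ins2 had no value, 18096754 in refed WT and 11074797 in refed KR. They lay within 0.05 of a whole number in 73.1% to 73.9% of rows under 100. Counting intervals of ratios are at 95%.

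The 11953 genes with a mean of at least 1 FPKM were fitted on log2(FPKM + 1), which understates changes of low genes, with limma 3.58.1 in R 4.3.3 with trend, in the additive model of genotype and feeding. Each gene has 1 residual degree of freedom and a prior worth 7.58, and a Benjamini-Hochberg adjusted p under 0.05 is a call. With 1 library per group, that residual is the difference between the feeding responses of the genotypes and not a spread between replicates. The SEs and p-values set a change against this difference, pooled with that of other genes, and cover only these pooled libraries. Tested on simulated data for the feeding comparison with 11953 genes, the fit recovered 92% of changes of 0.5 and 100% of changes of 1, 1.5 and 2, with 0.0681% of unchanged genes called. The simulated noise was independent and scaled from the residuals of this same fit, and only 50 genes were changed per size. In the real data 56.9% of genes were called. These rates therefore show that the code works and not how reliable the real calls are. The 10 genes and all lists were chosen with earlier results of these data known. Genes to name were, by rule, the 10 genes, up to 4 called genes with a mean of at least 5 FPKM per list, Ciita, defining markers and the nearest profiles, of which the text gives a selection. Csf1r, C1qa, C1qb, Clec9a, Flt3, Xcr1, Zbtb46, H2-DMb1, Cd40, H2-Ea-ps, H2-K1, Igj, Cd4, Cd247, Il7r, Ikzf3, Blnk, Cd22 and B-cell genes above 0 in 1 library lie outside this rule and were chosen after their values were seen. Lists of endocrine, adipocyte, endothelial and acinar genes were also counted: between genotypes 5, 0, 0 and 0 rose and 0, 2, 0 and 0 fell, of 14, 4, 8 and 4 tested (with refeeding 7, 0, 1 and 3 rose and 1, 2, 5 and 0 fell), and of 4 tested lymphoid stroma genes 0 rose and 1 fell. Alternatives varied pseudocount, filter, prior, scaling, row choice and model. Some genes of the lists are counted but not reported here by name.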

Additional observations from a re-analysis of the deposited data

Results flagged for a closer look

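Of the 10 genes, 3 had feeding ratios of opposite sign in the 2 genotypes, higher in the WT pair and lower in the KR pair. The KR ratio minus the WT ratio was -0.13 for H2-Aa, -0.32 for Cd79a and -0.64 for Cxcl13 on the log2 scale. The bounds of the fasted and refed libraries overlapped in every one of these pairs, and the difference itself was not tested, since 1 library per group leaves no residual for it.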

How the results depend on the processing

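Between genotypes 151 genes were called in all, against 0 with no filter on low values (1892 at an unadjusted p under 0.05), 5 in limma without trend, 228 with a robust prior, 252 with a mean of at least 5 FPKM and 865 with limma-voom on implied fragments. After median of ratios rescaling, KR was the higher side in 86 of 137 calls, compared with 72 of 151. The count of calls between feeding states, 6796, stayed within 1.5 times in each of 9 alternatives. Of the genes described, 3 fell and 1 rose with refeeding; at a mean of at least 5 FPKM 0 rose, as H2-DMa was then not tested. The change of Cd79a was 0.0084 with a pseudocount of 0.1, 0.0027 with 0.5 and 0.0073 after rescaling, against -0.0023, and was called in 0 of 8 alternatives. At a fold of 1.5 in place of 2, the genes apart numbered 6 and 3 between genotypes in the fasted and refed pairs and 3 and 2 between feeding states in WT and KR, against 1, 1, 0 and 1. Chosen after seeing the data, the fasted genotype pair held 3 genes at least 2-fold apart with a pseudocount of 0.1, of 0.5, with none and after rescaling, the WT feeding pair 1 with a pseudocount of 0.1, of 0.5 or none, and the KR feeding pair 2 with none. With a pseudocount of 0.1 the genotype ratios of Cxcl13 were 2.62 and 1.73 (1.86 and 1.22 with 1). No paired analysis was possible because each group holds 1 library. The fit without the fasted KR library, chosen after seeing the data, has no residual degree of freedom. Depth limits Cd79b and Ciita, with at most 30 and 14 fragments in a library.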
